A study of Mus musculus with 32 samples.

Results

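The genes described here encode the subunits of the mitochondrial respiratory chain and the ATP synthase that are carried in the nucleus. They were chosen by name, as the genes of the exon count table whose symbols begin as those of complexes I to V do (Nduf, Sdh, Uqcr, Cox4 to Cox8 and Atp5), with the Ndufaf assembly factors left out. The rule found 84 of 24411 genes: 37 of complex I, 4 of complex II, 8 of complex III, 18 of complex IV and 17 of complex V. It follows symbols and not structures: Ndufa4 is now placed with complex IV, Cox7a2l is a supercomplex factor, Atp5s and Atp5sl are not subunits proper, and true subunits such as Cyc1 and Ndufab1 carry other names. The 32 libraries came from the brains of 8 C57BL/6 mice that carry the RiboTag allele of Rpl22, from which Cre recombination makes an HA-tagged large ribosomal subunit protein. In 4 mice (numbered 1 to 4) the inducible CreER was expressed from Cx3cr1, a chemokine receptor gene of microglia and other macrophages, and in the other 4 (7, 9, 17 and 21) from Sall1, a transcription factor gene used as a microglial marker. Tamoxifen was given to every animal at 4 to 6 weeks of age (gavage of 5 mg, 4 times, on alternate days), so no untreated or Cre-free group stands among them. Each mouse gave 4 libraries of polyA RNA: an anti-HA precipitate of brain homogenate (HA), a precipitate of the same kind with an isotype antibody (IgG), total RNA of sorted microglia (Sort) and the anti-HA precipitate of sorted microglia (SortIP).

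For the 8 sorted Cx3cr1 libraries the labels disagree: each library titled Sort is described as SortIP, and each titled SortIP as Sort. The titles set the groups below, the libraries are called "titled Sort" and "titled SortIP", and counts of members that rest on them are also given by description. Gene counts made up 62.1% to 65.8% of the total in the column header in Sall1 Sort and 65.3% to 74.8% in Sall1 SortIP. By title the order was the other way in the Cx3cr1 line, with 71.2% to 75.9% in Sort and 63.5% to 66.4% in SortIP. Which labels are right was not tested, so directions that rest on the titles may be turned.

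Complexes I and II pass electrons from NADH and succinate to ubiquinone, complex III passes them on to cytochrome c, and complex IV hands them to oxygen. Complexes I, III and IV pump protons as they do so, and complex V, the ATP synthase, uses the proton gradient to make ATP. Mitochondrial DNA encodes part of the core of every complex except II. The remaining subunits are encoded in the nucleus and translated on cytosolic ribosomes, and their promoters are known for sites of the factors NRF1, of the ETS family (NRF2, or GABP) and YY1.

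RefSeq promoter windows of 300 bases (250 before and 50 after the start, GRCm38.p6) were found for 69 of the 84 genes, 75 windows in all. Exact letters of 3 motifs were searched on both strands: for NRF1, GCGCA followed after any 1 base by GCGC; for ETS factors, CCGGAAG; and for YY1, AAGATGGC. The NRF1 letters stood in 24% of the members' windows, against 4.603% of all 32851 windows and 9.65% of those of genes tested in the Sall1 HA precipitate. For the ETS letters the shares were 21.3%, 8.86% and 16.4%, and for the YY1 letters 16%, 2.75% and 4.46%. At least 1 of the 3 motifs stood in 53.3% of the members' windows, 14.7% of all and 27.1% of those of tested genes. The windows of 5 genes are shown because their genes carry the results below: Uqcrc1 (chr9:108936398-108936697, plus strand) and Sdha (chr13:74350191-74350490, minus strand), which were lower in the HA precipitates, Atp5k (chr5:108434350-108434649, minus strand), which had the smallest adjusted p between the HA groups of the lines, and the isoform pair Cox8a (chr19:7217567-7217866, minus strand) and Cox8b (chr7:140900397-140900696, minus strand). Capitals mark motif matches, of NRF1 in Uqcrc1 and Sdha, of NRF1 and then ETS in Atp5k, and of ETS in Cox8a; none is in Cox8b.
Uqcrc1: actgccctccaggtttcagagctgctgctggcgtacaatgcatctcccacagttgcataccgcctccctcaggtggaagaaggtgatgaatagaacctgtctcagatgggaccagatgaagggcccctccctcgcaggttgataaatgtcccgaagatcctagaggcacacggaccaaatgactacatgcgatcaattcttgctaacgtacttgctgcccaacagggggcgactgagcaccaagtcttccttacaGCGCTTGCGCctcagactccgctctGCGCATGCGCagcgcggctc
Sdha: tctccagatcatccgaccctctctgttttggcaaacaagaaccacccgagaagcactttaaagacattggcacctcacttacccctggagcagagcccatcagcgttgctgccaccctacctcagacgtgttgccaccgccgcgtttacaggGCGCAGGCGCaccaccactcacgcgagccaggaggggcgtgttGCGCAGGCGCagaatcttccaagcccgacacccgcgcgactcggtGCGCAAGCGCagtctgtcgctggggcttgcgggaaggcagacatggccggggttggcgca
Atp5k: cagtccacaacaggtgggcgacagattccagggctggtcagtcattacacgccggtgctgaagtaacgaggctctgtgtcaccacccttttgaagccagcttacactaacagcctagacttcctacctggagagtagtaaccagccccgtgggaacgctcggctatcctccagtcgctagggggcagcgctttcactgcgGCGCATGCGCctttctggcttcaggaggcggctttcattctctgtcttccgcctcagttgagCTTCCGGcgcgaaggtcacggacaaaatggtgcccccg
Cox8a: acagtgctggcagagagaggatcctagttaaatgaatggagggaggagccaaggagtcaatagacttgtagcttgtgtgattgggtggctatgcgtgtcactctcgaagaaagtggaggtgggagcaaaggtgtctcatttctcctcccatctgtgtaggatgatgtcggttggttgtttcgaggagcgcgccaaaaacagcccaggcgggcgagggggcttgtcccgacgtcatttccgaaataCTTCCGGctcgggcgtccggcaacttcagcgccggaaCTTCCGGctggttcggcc
Cox8b: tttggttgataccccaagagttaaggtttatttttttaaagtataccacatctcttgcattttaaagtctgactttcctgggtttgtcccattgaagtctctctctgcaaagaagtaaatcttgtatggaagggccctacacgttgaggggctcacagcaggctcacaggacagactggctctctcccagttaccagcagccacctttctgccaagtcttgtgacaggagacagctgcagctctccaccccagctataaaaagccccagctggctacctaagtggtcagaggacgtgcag

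Members were also set side by side by whether their window held a match. In the Sall1 line the median log2 change of HA over IgG was 1.43 over the 37 tested members with a match and 1.26 over the 30 without; in the Cx3cr1 line it was 0.23 over 37 and 0.16 over 27. Between the HA groups of the lines the order was the other way, with medians of 0.86 over the 37 with a match and 1.13 over the 29 without. These medians are a description, with no test.

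Library depth ran from 249881 to 4047465 gene counts, lowest in the Cx3cr1 HA libraries (286418 to 574671) and in Sall1 SortIP (249881 to 980218). CPM values (counts scaled by library total) below are relative to these totals. Of 5 microglial markers (P2ry12, Tmem119, Csf1r, C1qa, Aif1) none was at 0 in any group. Together they made 3.58% to 4.19% of gene counts in Cx3cr1 HA, 2.12% to 3.58% over the sorted libraries, 0.223% to 0.284% in Sall1 HA and 0.0355% to 0.0633% in IgG. Among the sorted libraries they were at 3.44% in titled Cx3cr1 Sort and 2.46% in titled SortIP, and at 2.33% in Sall1 Sort and 3.19% in Sall1 SortIP (means of 4).

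Together the 84 genes made up 5.15% ± 0.255 of gene counts in Sall1 HA (SD, n = 4 mice, as for each group), the highest level of the 8 groups. The 4 Sall1 HA libraries lay between 4.85% and 5.43%, and no library of another group exceeded 2.89%. Cx3cr1 HA, at 2.28% ± 0.0998, overlapped with Cx3cr1 IgG (2.42% ± 0.167), and Sall1 IgG stood at 2.55% ± 0.243. The sorted cells held far less: 1.10% ± 0.0921 in titled Cx3cr1 Sort, 1.02% ± 0.0856 in titled Cx3cr1 SortIP, 1.08% ± 0.0561 in Sall1 Sort and 1.13% ± 0.0660 in Sall1 SortIP, 4 groups that overlap one another. In bulk RNA, fewer cells of a type and less RNA per cell cannot be told apart.

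**Figure D1:**
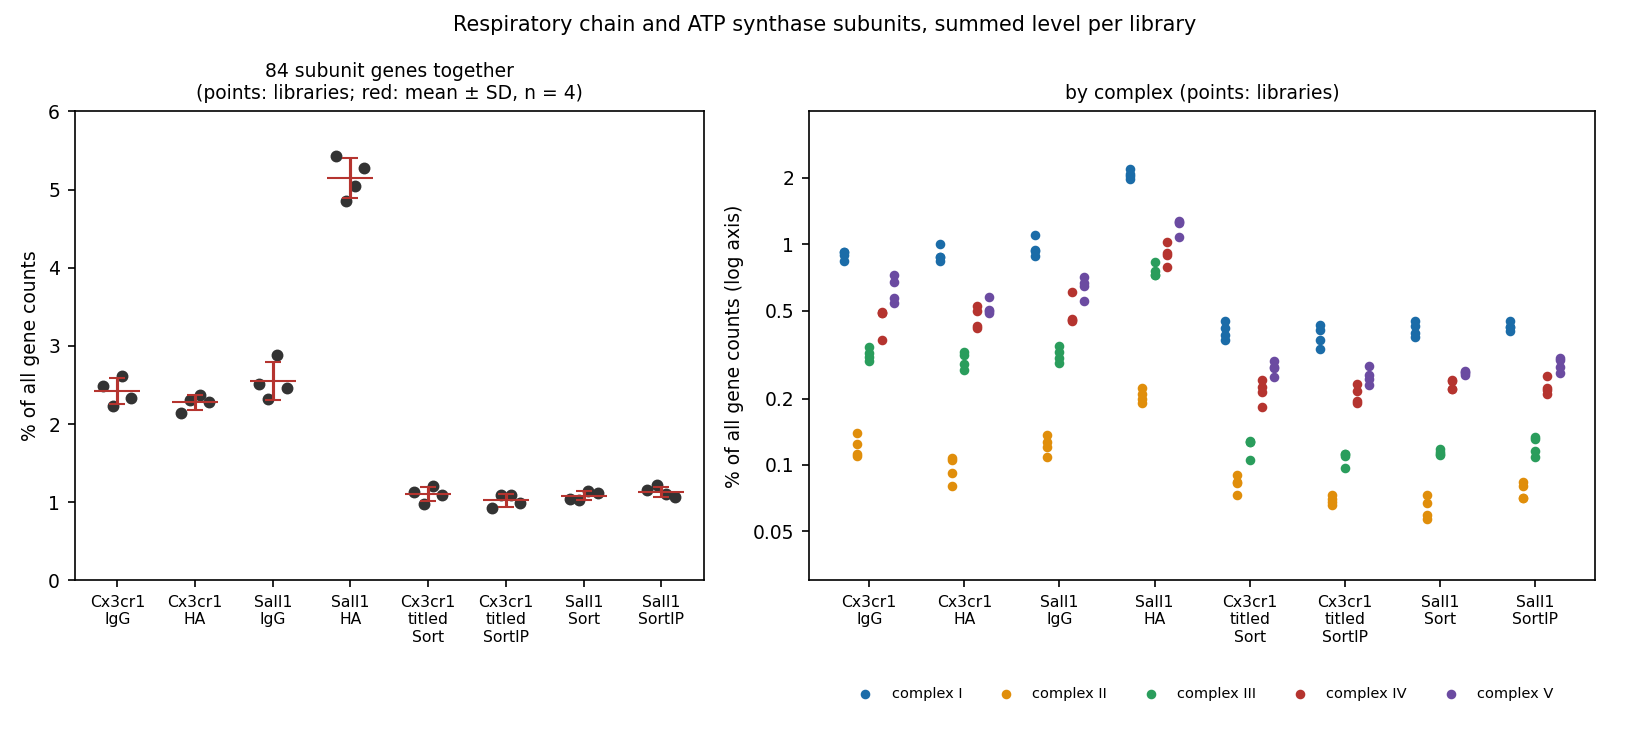
Share of all gene counts taken by the 84 subunit genes in each library (left: points are libraries, red marks the mean ± SD of 4) and by the members of each complex (right, log axis). The Sall1 HA libraries lie between 4.85% and 5.43%, above every other library, and in each of the 5 complexes.

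In each complex Sall1 HA held the highest share. Complex I was at 2.07% ± 0.0934 of counts in Sall1 HA against 0.967% ± 0.0912 in Sall1 IgG, and at 0.897% ± 0.0692 and 0.892% ± 0.0394 in Cx3cr1 HA and IgG. Complex III, the bc1 complex, was at 0.759% ± 0.0498 against 0.317% ± 0.0241 in the Sall1 line and at 0.300% ± 0.0250 against 0.317% ± 0.0199 in the Cx3cr1 line. Complex V was at 1.22% ± 0.0938 against 0.646% ± 0.0656 and at 0.518% ± 0.0415 against 0.627% ± 0.0856, and complex IV at 0.903% ± 0.0971 against 0.493% ± 0.0764 and at 0.466% ± 0.0533 against 0.460% ± 0.0602. Complex II, with 4 genes, reached 0.206% ± 0.0147 against 0.123% ± 0.0114 and 0.0961% ± 0.0126 against 0.121% ± 0.0134.

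Per kilobase of exon, levels in Sall1 HA were led by Uqcr10 (5034 CPM per kb), Uqcr11 (4604), Cox4i1 (4015) and Cox6a1 (3551). The change of HA over IgG fell with exon length, as given below, so a ranking on this scale is not free of length. In Sall1 Sort the same 4 genes stood at 367, 347, 896 and 822 CPM per kb. The lowest levels belonged to isoforms: Cox8c had 1 read in the 32 libraries together, and Atp5g2, Cox4i2, Cox7b2 and Ndufa4l2 stayed at or under 10.7 CPM per kb in every group mean.

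In the Cx3cr1 line the HA precipitate held some subunits above and others below the IgG background. Of 76 members tested, 30 were higher and 20 lower (edgeR quasi-likelihood test, Benjamini-Hochberg adjusted p under 0.05 over all genes tested), with a median log2 change of 0.21. Over all 10021 genes tested, 28.6% were higher and 36% lower, and the median was -0.28. The split depends on scaling: with library totals alone, 18 members were higher and 28 lower (median -0.19), while the median of all genes moved to -0.68. The 8 members not tested for low counts were Atp5g2, Cox4i2, Cox6b2, Cox7a1, Cox7b2, Cox8b, Cox8c and Ndufa4l2. Of the 50 called, 35 had groups that did not overlap, as did 37 of the 76 tested. Over all genes, 64.5% were called in either direction. The share of all genes whose groups did not overlap was not computed, here or in the comparisons below. Counts of members without overlap therefore have no such share beside them.

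The 3 higher members with the smallest adjusted p were Uqcr10, Atp5e and Ndufb7. Uqcr10, a subunit of complex III (NM_197979, chr11:4601971-4604347 in mm9, minus strand), stood at 337, 272, 314 and 379.8 CPM in the IgG libraries of mice 1 to 4 and at 724, 688, 957 and 1152 CPM in HA. Every HA library was above every IgG library, and the log2 change was 1.83 (SE 0.20, edgeR adjusted p = 8.98e-07). Atp5e, the epsilon subunit of the F1 part of ATP synthase, went from 116, 164, 124 and 102 CPM to 278, 395, 429 and 318 CPM, a change of 1.89 (SE 0.21, edgeR adjusted p = 1.03e-06). Ndufb7, an accessory subunit of complex I, went from 278, 355, 260.2 and 299 CPM to 696, 857, 587 and 670.3 CPM, a change of 1.64 (SE 0.19, edgeR adjusted p = 1.44e-06). The groups of these genes did not overlap.

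Other members of the same complexes were lower. Ndufa10, an accessory subunit of complex I, fell from 325, 288, 363 and 372 CPM in IgG to 57.4, 67.3, 61.9 and 34.9 CPM in HA, a log2 change of -2.18 (SE 0.22, edgeR adjusted p = 3.90e-07). Uqcrc1, a core protein of complex III (NM_025407, chr9:108838661-108851686 in mm9, plus strand), fell from 1085, 1074, 1244 and 1087 CPM to 226, 303, 209 and 230.4 CPM, a change of -1.81 (SE 0.18, edgeR adjusted p = 3.90e-07). For Sdha, the flavoprotein of complex II (NM_023281, chr13:74459703-74487688 in mm9, minus strand), the values were 545, 387, 652 and 548 CPM and 104, 107, 115 and 90.8 CPM, a change of -1.95 (SE 0.21, edgeR adjusted p = 6.74e-07). In all 3 genes the highest HA library lay under the lowest IgG library.

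By complex, 13 of 36 tested members of complex I were higher and 10 lower. Among its 7 nuclear-encoded core subunits, which belong to its catalytic part, 1 was higher and 5 were lower. The median exon length of these 7 is 1530 bases, against 676 over complex I, and the change fell with length, as given below. The part of length in this split was not tested. Complex III had 4 higher and 3 lower of 8, complex IV 7 higher and 1 lower of 12, and complex V 4 higher and 4 lower of 16. The large catalytic Atp5b did not pass (-0.23, SE 0.22). Cox4i1, the most abundant complex IV member, passed narrowly at 0.51 (SE 0.21, edgeR adjusted p = 0.042); it did not pass with library totals alone (0.12, adjusted p = 0.640), nor without Cx3cr1 HA library 1 (0.0572), 3 (0.0602) or 4 (0.153), or IgG library 1 (0.0837), 2 (0.0521) or 3 (0.0781). Cox6a1, Cox6b1, Cox7a2l and Cox8a, of the same complex, were called too but not with library totals alone (adjusted p 0.0923 to 0.448), and Cox8a not without HA library 3 (0.103) or 4 (0.170) or IgG library 3 (0.0875). Cox7b (log2 change -0.70, adjusted p = 0.0562) passed with the mouse as a block (adjusted p = 0.0449) and without IgG library 2 (adjusted p = 5.05e-04), as did Ndufa4 without that library (adjusted p = 1.27e-04).

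Most subunits in the Sall1 line were higher in HA than in IgG. Of 80 members tested, 63 were higher and 8 lower, with a median log2 change of 1.27, while over all 11545 genes tested 35.2% were higher and 36.1% lower with a median of -0.03. With library totals alone, 55 were higher and 11 lower, and the medians were 0.86 for the members and -0.44 for all genes. Among the 71 called, 53 had groups that did not overlap; 71.3% of all genes were called in either direction. Cox4i2, Cox7b2, Cox8c and Atp5g2 were too low to test.

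Uqcr10 rose from 317, 334, 335 and 294 CPM in the IgG libraries of mice 7, 9, 17 and 21 to 2375, 2158, 2504 and 1763 CPM in HA, a log2 change of 3.18 (SE 0.16, edgeR adjusted p = 2.83e-11). Its partner Uqcr11, another small complex III subunit, rose from 293, 453, 301 and 338 CPM to 1633, 2024, 2148 and 2132 CPM, a change of 2.92 (SE 0.16, edgeR adjusted p = 9.92e-11). Atp5e rose from 146, 163, 129 and 145 CPM to 585, 628, 738 and 618 CPM, a change of 2.54 (SE 0.15, edgeR adjusted p = 1.36e-10). In these 3 genes the lowest HA library lay far above the highest IgG library.

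Against this majority, Uqcrc2, the second core protein of complex III, fell from 349, 215, 335 and 228 CPM to 17.9, 31.3, 29.6 and 32.4 CPM, a log2 change of -2.93 (SE 0.22, edgeR adjusted p = 4.03e-09). Sdha fell from 575, 468, 606 and 456 CPM to 149, 182, 168 and 178 CPM, a change of -1.24 (SE 0.16, edgeR adjusted p = 1.54e-06), and Uqcrc1 from 1014, 738, 1214 and 1125 CPM to 329, 334, 361 and 429 CPM, a change of -1.10 (SE 0.18, edgeR adjusted p = 2.46e-05). Complex I had 30 higher and 3 lower of 37 (3 and 2 among the 7 core subunits), complex III 5 and 3 of 8, complex IV 14 and 0 of 15, and complex V 12 and 0 of 16. Atp5b, the catalytic beta subunit, rose by 0.99 (SE 0.18, edgeR adjusted p = 9.25e-05).

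Across both lines, 29 members were higher in each and 7 were lower in each. A further 23 were higher in the Sall1 line and not called in the Cx3cr1 line, and 7 were lower in the Cx3cr1 line but higher in the Sall1 line. The lines are different mice with their own IgG controls, and the count of 29 is 96.7% of the 30 higher in Cx3cr1 and 46.0% of the 63 higher in Sall1. Because 63 of the 80 members tested were higher in Sall1, a large overlap was likely from that share alone. The overlap over all genes was not computed, and in both lines the change fell with exon length, as given below.

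**Figure D2:**
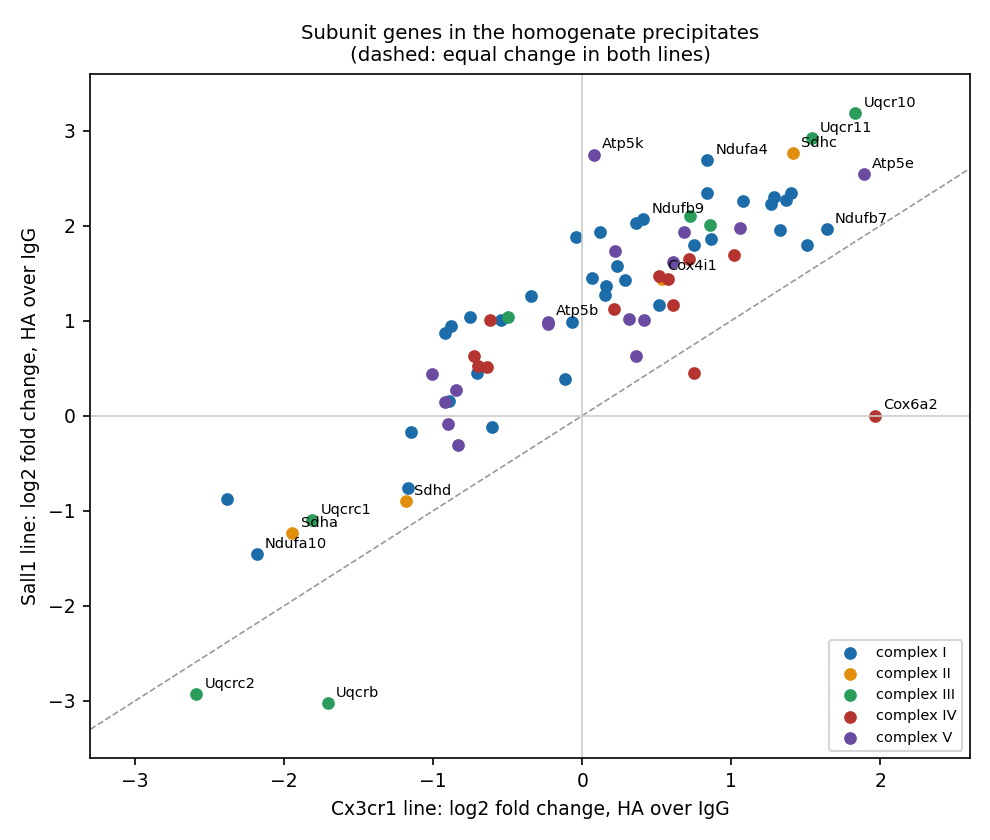
Log2 fold change of HA over IgG in the Sall1 line (vertical axis) against the Cx3cr1 line (horizontal axis) for the members tested in both; points are genes, coloured by complex, and the dashed line marks equal change. Most points lie above the dashed line, with Uqcr10 highest in the Sall1 line at 3.18, while Cox6a2 (1.96 in Cx3cr1 and 0.00 in Sall1) lies to the far right and Uqcrb and Uqcrc2 at the bottom left.

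Enrichment over IgG differed between the lines. In an interaction test on the HA and IgG libraries, 58 of 80 members were more enriched in the Sall1 line and 1 less, with a median difference of 1.04 log2 units. Over all 12308 genes tested, 18.5% were more and 13.7% less enriched there (median 0.15). Ndufb9, an accessory subunit of complex I, showed it clearly: it was at 498, 652, 608 and 587 CPM in Cx3cr1 HA and 1881, 2232, 2015 and 1581 CPM in Sall1 HA. Its IgG libraries held 647, 581, 567 and 537 CPM and 667, 648, 568 and 549 CPM in the same order of lines. The difference in enrichment was 1.62 (SE 0.21, edgeR adjusted p = 1.74e-06). Ndufa11, likewise of complex I, differed by 1.47 (SE 0.21, edgeR adjusted p = 4.41e-06).

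Of the 3 members with the smallest adjusted p, the widest gap belonged to Atp5k, a small membrane subunit of ATP synthase (NM_007507, chr5:108862272-108863397 in mm9, minus strand). It stood at 144, 76.5, 183 and 174 CPM in Cx3cr1 IgG and 97.4, 113, 131 and 122 CPM in Cx3cr1 HA, 2 groups that overlap. Sall1 libraries held 222, 102, 154 and 107 CPM in IgG and 729.8, 728, 809 and 655 CPM in HA, with no overlap. It differed in enrichment by 2.61 (SE 0.36, edgeR adjusted p = 6.00e-06). The only member called the other way was Cox6a2, at -1.997 (SE 0.36, edgeR adjusted p = 1.14e-04).

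Set directly against Cx3cr1 HA, Sall1 HA held 66 of 78 tested members at higher and 2 at lower levels (all genes: 27.2% and 25.7%), with a median of 1.02. Of the 68 called, 66 had groups that did not overlap, and 52.9% of all genes were called. Atp5k had the smallest adjusted p, at 2.47 (SE 0.18, edgeR adjusted p = 7.87e-12). Larger log2 differences were fitted for Cox7a1 (3.55) and Cox8b (3.34), which had 2 counts each over the Cx3cr1 HA libraries. Ndufb11, an accessory subunit of complex I, was at 181, 260.0, 264 and 157 CPM in Cx3cr1 HA and 812, 874, 919 and 741 CPM in Sall1 HA, a log2 difference of 1.76 (SE 0.18, edgeR adjusted p = 7.68e-09). The lower members were Cox6a2 (-1.60, SE 0.26, edgeR adjusted p = 1.24e-05) and Uqcrb (-1.54, SE 0.41, edgeR adjusted p = 0.00238). The call of Uqcrb was lost without Cx3cr1 HA library 1 (adjusted p = 0.0666).

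Markers of other brain cells moved with these differences. Summed levels of 6 oligodendrocyte markers were 0.948% to 1.17% of counts in Sall1 HA and 0.144% to 0.208% in Cx3cr1 HA, against 0.415% to 0.665% in IgG, and 6 of 6 were more enriched in the Sall1 line. For 6 astrocyte markers the ranges were 0.493% to 0.780%, 0.0457% to 0.0752% and 0.259% to 0.339%, again with 6 of 6 more enriched. For 8 mural markers they were 0.0400% to 0.0650%, 0.00428% to 0.00594% and 0.0174% to 0.0347%, with 4 of 7 tested more enriched. Microglial markers moved the other way, with 5 of 5 lower in Sall1 HA than in Cx3cr1 HA. Neuronal markers, at 0.0709% to 0.142% in HA, were under the IgG range of 0.467% to 0.726% in both lines. Of 6 endothelial markers 1 was at 0 in Sall1 HA, and their sum was at most 0.00489% in HA. The part of these cells in the subunit levels was not tested.

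Most members are short, and over all genes the change of HA over IgG fell with transcript length. The members' median exon length is 680.5 bases, against 2107 for all genes, and 59 of 84 (70.2%) are under 1000 bases, against 22.8% of all genes. Across all genes tested, the rank correlation (Spearman) of exon length with the change of HA over IgG was -0.53 in the Sall1 line and -0.37 in the Cx3cr1 line; across members it was -0.54 (n = 80) and -0.42 (n = 76). For Sall1 HA, the 874 genes under 1000 bases had a median change of 1.40, and the 55 tested members under 1000 bases one of 1.58. At 1000 bases or more the medians were -0.15 over 10671 genes and 0.44 over 25 members. In the Cx3cr1 line the same medians were 0.78 and 0.36 under 1000 bases, and -0.37 and -0.71 at 1000 bases or more.

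**Figure D3:**
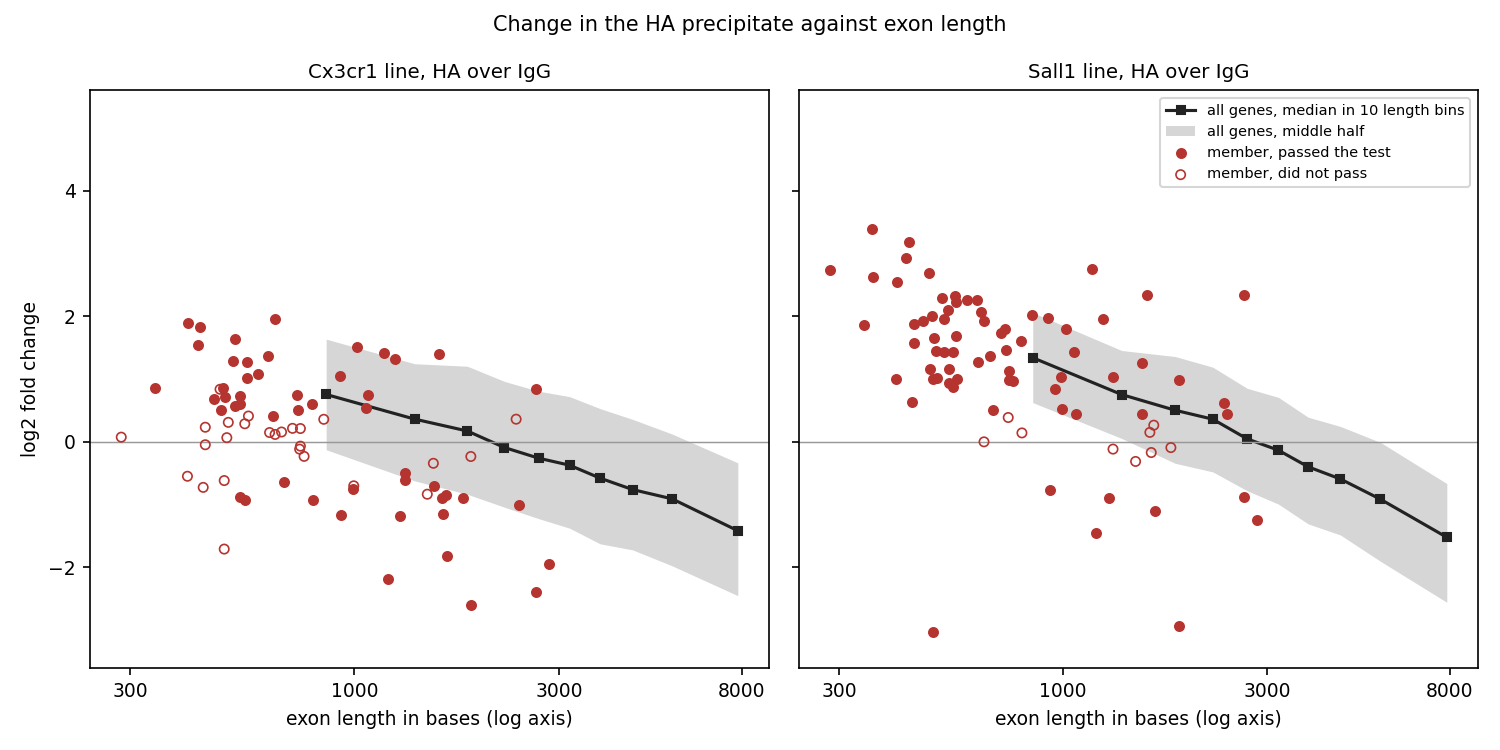
Log2 change of HA over IgG against exon length (log axis) in the Cx3cr1 line (left) and the Sall1 line (right). Red points are members, filled where they passed the test; the black line and grey band give the median and interquartile range of all genes in 10 bins of equal size by length. In both panels the line falls with length; members under 1000 bases have a median of 1.58 in the Sall1 line and 0.36 in the Cx3cr1 line, where all genes of that length have 1.40 and 0.78.

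A fit with a correction for exon length and the mouse as a block changed these calls. For Sall1 HA it left 25 members higher and 28 lower (median -0.08), while 32.6% of all genes were higher and 32.6% lower. Of the members in Cx3cr1 HA, 12 were higher and 42 lower (median -0.63), against 31.3% and 30.3% of all genes. The difference between the lines was then higher in 26 members and lower in 3 (median 0.50), against 14.1% and 18.4% of all genes. Sall1 HA over Cx3cr1 HA, corrected for length, gave 52 higher and 4 lower (median 0.58), against 24.8% and 27.6% of all genes.

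Complex II, which has no mitochondrially encoded subunit, was divided. Sdhb, the iron-sulphur subunit and its most abundant member, stood at 395, 374, 417 and 299.5 CPM in Cx3cr1 IgG and 364, 517, 399 and 346 CPM in HA, a narrow call at 0.54 (SE 0.19, edgeR adjusted p = 0.0201) that library totals alone ended (adjusted p = 0.548), and that was also lost without Cx3cr1 HA library 2 (adjusted p = 0.101) or IgG library 4 (adjusted p = 0.0869). Sall1 mice showed a rise from 469, 397, 422 and 355 CPM to 809.5, 794, 896 and 861 CPM, a change of 1.44 (SE 0.15, edgeR adjusted p = 1.10e-07). Sdhc, a membrane anchor, rose in both lines, by 1.41 (SE 0.21, edgeR adjusted p = 2.27e-05) and 2.76 (SE 0.19, edgeR adjusted p = 8.40e-10). Sdhd, the other anchor, fell in both, with log2 changes of -1.18 (SE 0.30, edgeR adjusted p = 0.00292) and -0.90 (SE 0.26, edgeR adjusted p = 0.00545). It stood at 106, 90.3, 123 and 94.2 CPM and 52.2, 42.8, 22.9 and 13.97 CPM in Cx3cr1 IgG and HA, and at 97.99, 107, 105 and 89.5 CPM and 31.1, 34.3, 23.9 and 71.02 CPM in the Sall1 line, without overlap. Sdha fell in both lines as given above.

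Several cytochrome oxidase subunits have a second isoform known from heart, skeletal muscle, testis or lung. Cox6a2, the heart and muscle form (NM_009943, chr7:135348949-135349880 in mm9, minus strand), stood at 14.99, 17.001, 17.9 and 10.4 CPM in Cx3cr1 IgG and at 45.2, 45.9, 48.2 and 38.4 CPM in Cx3cr1 HA. The groups did not overlap, and the log2 change was 1.96 (SE 0.28, edgeR adjusted p = 1.99e-05). In the Sall1 line it was at 18.5, 28.9, 18.7 and 20.96 CPM in IgG and 17.9, 20.1, 11.1 and 17.8 CPM in HA, a change of 0.00 (SE 0.26, edgeR adjusted p = 0.997). Its last bases overlap the end of Itgad on the other strand, which stood at most at 0.680 CPM in any group mean. Sorted cells held 32.8, 31.5, 28.2 and 26.4 CPM in Sall1 Sort and 55.1, 46.5, 30.6 and 32.02 CPM in Sall1 SortIP, but 14.4, 12.2, 28.3 and 5.90 CPM and 8.95, 29.5, 14.4 and 12.5 CPM in titled Cx3cr1 Sort and SortIP. Its common partner Cox6a1 changed by 0.58 (SE 0.17, edgeR adjusted p = 0.00787) and 1.43 (SE 0.15, edgeR adjusted p = 2.33e-07) in the Cx3cr1 and Sall1 HA precipitates.

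Cox8b, Cox7a1 and Cox6b2, the heart and muscle forms of subunits VIII and VIIa and the testis form of VIb, were higher in Sall1 HA. Cox8b (NM_007751, chr7:148084841-148086345 in mm9, minus strand) stood at 0, 1.73, 2.34 and 2.27 CPM in Sall1 IgG and 18.5, 13.7, 19.3 and 9.58 CPM in HA, a log2 change of 3.39 (SE 0.40, edgeR adjusted p = 7.16e-07). Cox7a1 went from 1.42, 3.95, 3.68 and 4.53 CPM to 14.2, 18.8, 25.9 and 11.2 CPM, a change of 2.63 (SE 0.34, edgeR adjusted p = 2.21e-06), and Cox6b2 from 4.26, 6.67, 5.69 and 5.66 CPM to 18.5, 22.3, 27.97 and 20.1 CPM, a change of 2.33 (SE 0.26, edgeR adjusted p = 3.74e-07). The groups of all 3 were apart. In Cx3cr1 HA they had 2, 2 and 6 counts over the 4 libraries, and in Sall1 SortIP 2, 1 and 13 (8 of the 13 in library 21, at 32.02 CPM), so their levels there are set by single reads. Their common partners rose too in the Sall1 line: Cox8a by 1.17 (SE 0.20), Cox7a2 by 1.13 (SE 0.21) and Cox6b1 by 1.65 (SE 0.17).

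Cox4i2, the lung form of subunit IV, was not tested. It had 52 counts over the Sall1 HA libraries (4.75, 2.14, 2.88 and 10.2 CPM), 18 over Sall1 IgG and none over Cx3cr1 HA, where the limit of 3 counts over the group corresponds to 1.85 CPM. Cox7b2 had 27, 13 and 1 counts in the same groups. Ndufa4, by contrast, was at 36.9, 65.2, 34.5 and 36.2 CPM in Sall1 IgG and 234, 189, 196 and 235 CPM in HA, a log2 change of 2.69 (SE 0.20, edgeR adjusted p = 2.61e-09). Its relative Ndufa4l2, a hypoxia-inducible gene, was at 4.26, 11.6, 4.01 and 8.50 CPM and 7.39, 16.7, 7.40 and 9.58 CPM, groups that overlap; it passed narrowly at 0.85 (SE 0.37, edgeR adjusted p = 0.0468) and did not pass by DESeq2 (adjusted p = 0.0632), with library totals alone (0.316), or without HA library 9 (0.244) or 21 (0.0613) or IgG library 7 (0.0887), 17 (0.175) or 21 (0.0684).

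**Figure D4:**
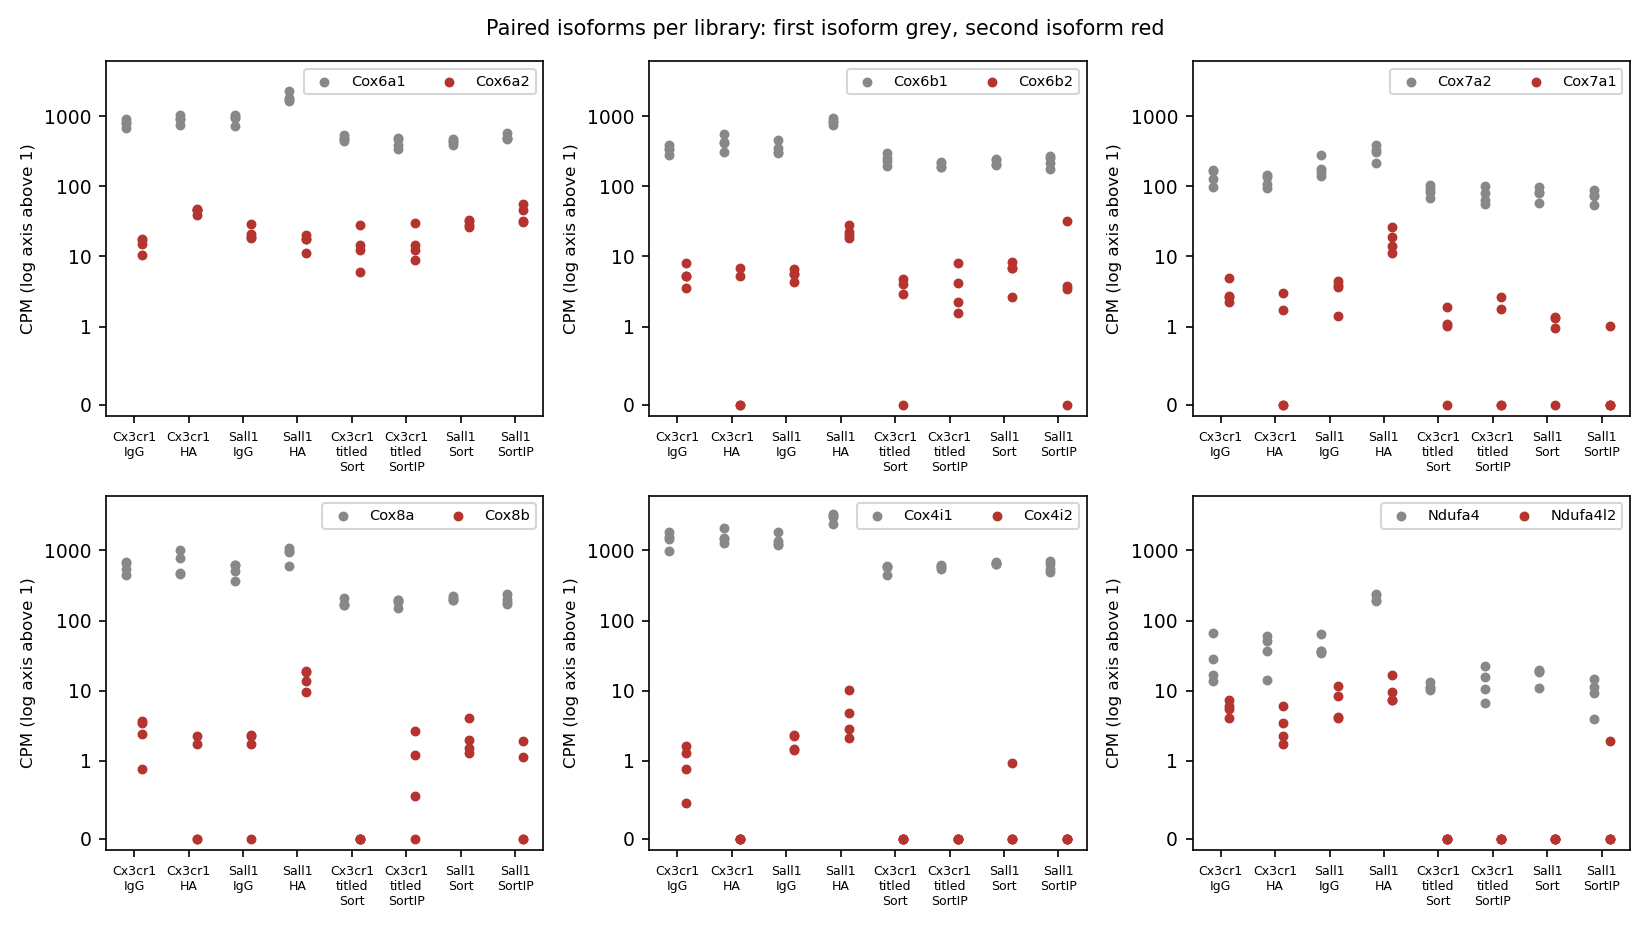
CPM of 6 isoform pairs in each of the 32 libraries (points), by group, on an axis that is linear up to 1 and logarithmic above. The red isoforms Cox8b, Cox7a1 and Cox6b2 lie higher in Sall1 HA than in either IgG group, and Cox6a2 lies at 38.4 to 48.2 CPM in Cx3cr1 HA against 11.1 to 20.1 CPM in Sall1 HA.

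The c ring of ATP synthase is encoded by Atp5g1, Atp5g2 and Atp5g3, which make the same mature protein. Atp5g1 in the Sall1 line rose by 1.62 (SE 0.17, edgeR adjusted p = 1.99e-07) and Atp5g3 by 1.73 (SE 0.18, edgeR adjusted p = 1.19e-07); Atp5g2 had 28 counts over HA and 17 over IgG and was not tested. In the Cx3cr1 line Atp5g1 changed by 0.61 (SE 0.20, edgeR adjusted p = 0.0148) and Atp5g3 by 0.22 (SE 0.18, edgeR adjusted p = 0.304). The first of these did not pass with library totals alone (adjusted p = 0.371), nor without HA library 2 (0.0535) or IgG library 1 (0.0702) or 4 (0.0539). Atp5l, the g subunit, changed by 0.31 (SE 0.24) in Cx3cr1 and 1.02 (SE 0.17, edgeR adjusted p = 3.75e-05) in Sall1.

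Uqcrb, a small subunit of complex III that binds ubiquinone, is described here after its values were seen. It was at 107, 23.5, 80.97 and 43.05 CPM in Sall1 IgG and 6.86, 5.57, 3.29 and 6.94 CPM in Sall1 HA, a log2 change of -3.02 (SE 0.45), while its exon length of 497 bases is close to that of Uqcr10 (437). In the Cx3cr1 line it was at 79.97, 7.69, 91.5 and 71.6 CPM in IgG and 20.9, 9.18, 11.5 and 13.97 CPM in HA, groups that overlap at IgG library 2, and it did not pass (-1.71, SE 0.72, edgeR adjusted p = 0.0573). Sorted cells held 121, 102, 111 and 99.8 CPM in Sall1 Sort. Uqcrb, Atp5g2, Ndufs3, Cox7c and Atp5l belong to genes with near-identical copies or pseudogenes. How reads with several matches were counted is not stated, so these levels are uncertain. Copies were not searched for here, and the levels of other members may be uncertain for the same reason.

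Other genes of energy metabolism, in lists set by name, did not all follow the subunits. For HA over IgG the shares over all genes tested were 28.6% higher and 36% lower in the Cx3cr1 line. In the Sall1 line they were 35.2% and 36.1%. Of respiratory chain assembly factors, 9 rose and 11 fell of 39 tested in Cx3cr1 HA over IgG, and 23 rose and 6 fell of 45 in the Sall1 line. The list closest to the members, 10 subunits and carriers that the name rule misses, made 0.279% ± 0.0154 of counts in Sall1 HA against 0.319% ± 0.0176 in Sall1 IgG, and 0.159% ± 0.0228 against 0.301% ± 0.0454 in Cx3cr1 HA and IgG (SD, n = 4). Its summed share was lower in HA in both lines, without overlap. By gene, 2 rose and 5 fell of 9 tested in the Cx3cr1 line (median -0.61), and 5 rose and 2 fell of 9 in the Sall1 line (median 0.52). Higd2a, which takes part in complex IV assembly, rose in both (1.97, SE 0.20, and 1.64, SE 0.16), and Slc25a3, the mitochondrial phosphate carrier, fell in both (-1.35, SE 0.20, and -0.73, SE 0.15). Ndufaf8, a complex I assembly factor, rose in both (2.07, SE 0.22, and 2.18, SE 0.16). Citric acid cycle enzymes gave 1 higher and 11 lower of 13 in the Cx3cr1 line and 5 and 6 of 13 in the Sall1 line; Ogdh, of the oxoglutarate dehydrogenase complex, fell in both (-2.77, SE 0.23, and -2.48, SE 0.22). Glycolytic enzymes gave 1 and 12 of 15, then 5 and 6 of 15. The 1 that rose in Cx3cr1 HA was Hk2, a hexokinase (4.90, SE 0.38), while Pfkm, the muscle-type phosphofructokinase, fell (-2.17, SE 0.18). Among regulators of mitochondrial biogenesis, 2 rose and 4 fell of 9 in the Cx3cr1 line and 3 and 5 of 9 in the Sall1 line, and the coactivator gene Ppargc1b fell in both (-3.77, SE 0.47, and -3.65, SE 0.26). Between the lines, enrichment was higher in Sall1 for 9 of 47 assembly factors, 6 of 13 cycle enzymes, 5 of 15 glycolytic enzymes and 0 of 11 regulators (1 was lower in each list except the cycle enzymes), against 58 of 80 subunits. Over all genes tested, 18.5% were more and 13.7% less enriched in the Sall1 line, so the assembly factors were near the share of all genes.

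No member was called between the IgG controls of the lines. Of 78 members tested, 0 were called by edgeR (all adjusted p at or near 1), 4 had an unadjusted p under 0.05, and DESeq2 called 0, with 2 at an unadjusted p under 0.05. Over all 11593 genes tested, 0.00863% were called. The median log2 difference of Sall1 over Cx3cr1 IgG was 0.12.

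Homogenate precipitates held more subunit RNA than precipitates of sorted cells. In the Sall1 line 72 of 80 tested members were higher in HA than in SortIP and 4 lower (all genes: 42.4% and 37.8%), with a median of 2.17. Of the 76 called, 71 did not overlap, and 80.2% of all genes were called. Corrected for length with the mouse as a block, 60 were higher and 5 lower (median 0.96), against 38.8% and 40.5% of all genes. In the Cx3cr1 line 56 of 75 were higher and 3 lower (all genes: 32.6% and 37.5%), with a median of 1.16. Of the 59 called by title, 46 did not overlap, and 70.1% of all genes were called. With groups by description the counts were 46 and 8 of 73, against 31.9% and 36.2% of all genes. With the length correction they were 41 and 7, against 35.5% and 32.7%. Uqcr10 stood at 108, 130.3, 139.8 and 120.1 CPM in Sall1 SortIP, so HA was higher in log2 units by 4.28 (SE 0.19, edgeR adjusted p = 5.01e-21). In titled Cx3cr1 SortIP it stood at 129, 169, 151 and 159.6 CPM, and HA was higher by 2.76 (SE 0.19, edgeR adjusted p = 7.02e-11) by title and by 2.67 by description. Uqcr11 was likewise higher, by 3.94 (SE 0.18) in Sall1 and 2.63 (SE 0.20) in Cx3cr1, or 2.50 by description.

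The members lower in homogenate HA than in sorted precipitates numbered 4 in the Sall1 line and, in the Cx3cr1 line, 3 by title and 8 by description. On the log2 scale Uqcrb changed by -3.83 (SE 0.28, edgeR adjusted p = 4.52e-15) in Sall1 and -2.29 (SE 0.28, edgeR adjusted p = 3.83e-07) in Cx3cr1, Uqcrc2 by -2.18 (SE 0.22) and -1.47 (SE 0.24), and Sdhd by -1.61 (SE 0.28) and -1.53 (SE 0.28). By description the Cx3cr1 values were -2.96 for Uqcrb, -1.85 for Uqcrc2 and -1.70 for Sdhd. Cox6a2 was the other member lower in the Sall1 line. For Cox7a1, Cox8b and Ndufa4l2, which had 1, 2 and 1 counts over the Sall1 SortIP libraries, no fold is given. Markers moved in these comparisons: all 6 neuronal and all 6 oligodendrocyte markers were higher in HA than in SortIP in each line, and all 5 microglial markers were lower in Sall1 HA. Their part was not tested.

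Total RNA of sorted Sall1 microglia held fewer subunit counts than the brain background. Of 76 tested members, 68 were lower in Sort than in IgG and 1 higher (all genes: 41.1% lower and 37.1% higher), with a median of -1.13. Uqcrc1 stood at 169, 168, 172 and 169 CPM in Sort and 1014, 738, 1214 and 1125 CPM in IgG, a log2 difference of -2.61 (SE 0.19, edgeR adjusted p = 2.74e-10). Atp5b was at 344, 325, 337 and 379 CPM and 1951, 1590.4, 1819 and 1263 CPM, a difference of -2.27 (SE 0.17, edgeR adjusted p = 3.90e-10), and Ndufv1, the core complex I subunit that oxidises NADH, at 130.1, 89.97, 82.6 and 101 CPM and 551, 522, 599 and 472 CPM, a difference of -2.44 (SE 0.19, edgeR adjusted p = 5.34e-10). The groups of these genes did not overlap. Uqcrb alone was called higher, at 0.83 (SE 0.36, edgeR adjusted p = 0.0499), a call that DESeq2 did not make (adjusted p = 0.143) and that was lost without any 1 Sort library or without IgG library 21 (adjusted p 0.116 to 0.144). Glycolytic enzymes were lower too, in 14 of 15, and cycle enzymes in 10 of 13. All 6 neuronal and 6 oligodendrocyte markers were lower in Sort and all 5 microglial markers higher, and their part was not tested.

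Within sorted microglia, 8 of 76 subunits in the Sall1 line and 9 of 76 in the Cx3cr1 line differed between precipitate and total RNA. Over all genes 10.5% and 12.8% were called in either direction, so the subunits were near the share of all genes. In the Sall1 line 7 of 76 members were higher in SortIP and 1 lower (all genes: 5.45% and 5.08%). Ndufa9, an accessory subunit of complex I, was at 101, 136, 114 and 117 CPM in Sort and 165, 162, 193 and 172 CPM in SortIP, without overlap, a log2 change of 0.70 (SE 0.16, edgeR adjusted p = 0.00722). Uqcrc1 rose by 0.62 (SE 0.14, edgeR adjusted p = 0.00857) and Atp5b by 0.57 (SE 0.14, edgeR adjusted p = 0.0105); Ndufa3, another accessory subunit, changed by -0.58 (SE 0.18, edgeR adjusted p = 0.0363), a call lost without any 1 of 6 of the 8 libraries (adjusted p up to 0.127). The count of 8 fell to 3 without Sort library 17, to 4 without SortIP library 17, and to 5 without Sort library 7 or 21 or SortIP library 21.

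In the Cx3cr1 line, by title, 1 of 76 was higher in SortIP and 8 were lower (all genes: 6.35% and 6.46%); by description the direction of each turns. Uqcrc1 was at 231, 218, 200.2 and 255 CPM in titled Sort and 139.7, 119, 144 and 134 CPM in titled SortIP, without overlap, a log2 change of -0.87 (SE 0.14, edgeR adjusted p = 0.00109) by title. Ndufs4, an accessory subunit of complex I, changed by -0.98 (SE 0.19, edgeR adjusted p = 0.00341), and Atp5a1, the alpha subunit of ATP synthase, by -0.58 (SE 0.13, edgeR adjusted p = 0.00766), both by title. Atp5s changed by 1.06 (SE 0.32, edgeR adjusted p = 0.0365) by title, a call lost without any 1 of 7 libraries. The count of 9 fell to 5 without titled Sort library 1. Of the 7 genes higher in Sall1 SortIP, 5 (71.4%) were among the 8 lower in titled Cx3cr1 SortIP (62.5%): Atp5a1, Atp5b, Ndufa5, Ndufa9 and Uqcrc1. By description these 5 were higher in the precipitate in both lines. The same overlap over all genes was not computed, so it is not known whether the members differ from other genes in this. Of microglial markers, 3 of 5 were higher in Sall1 SortIP than in Sort and 3 of 5 lower in titled Cx3cr1 SortIP. Summed neuronal markers were at 0.00355% to 0.0137% of counts in Sall1 Sort and 0.0156% to 0.0212% in Sall1 SortIP, without overlap, and 1 of 5 tested was called higher. Titled Cx3cr1 Sort libraries held 0.0124% to 0.0148% and titled SortIP libraries 0.00304% to 0.0131%, with overlap. The part of these markers in the member calls was not tested.

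Sorted cells of the lines differed in 15 of 75 members by title, with 3 higher and 12 lower in Sall1 Sort than in titled Cx3cr1 Sort (all genes: 11.9% and 11.9%). By description 0 of 76 were called by edgeR, with 8 at an unadjusted p under 0.05 (10.5% of members, against 10.8% of all genes). With both sorted libraries of each mouse summed, a form that does not depend on the labels, 1 was called. Shares of all genes called by description or in the sums are not given here. Ndufa9 (-0.76, SE 0.14, edgeR adjusted p = 4.42e-04 by title) went to -0.07 by description and -0.11 in the sums. SortIP libraries differed in 9 of 76 members by title, all higher in Sall1 (all genes: 5.79% higher and 5.1% lower), and in 1 by description. With groups by description, 8% of members had an unadjusted edgeR p under 0.05, against 9.17% of all genes. The count of 9 by title fell to between 2 and 4 without titled Cx3cr1 SortIP library 1 or 4 or Sall1 SortIP library 7, 17 or 21. Cox6a2 was called by title (1.62, SE 0.32, edgeR adjusted p = 0.00308), by description (1.40, adjusted p = 0.0160) and in the sums (1.19, adjusted p = 0.00957).

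**Figure D5:**
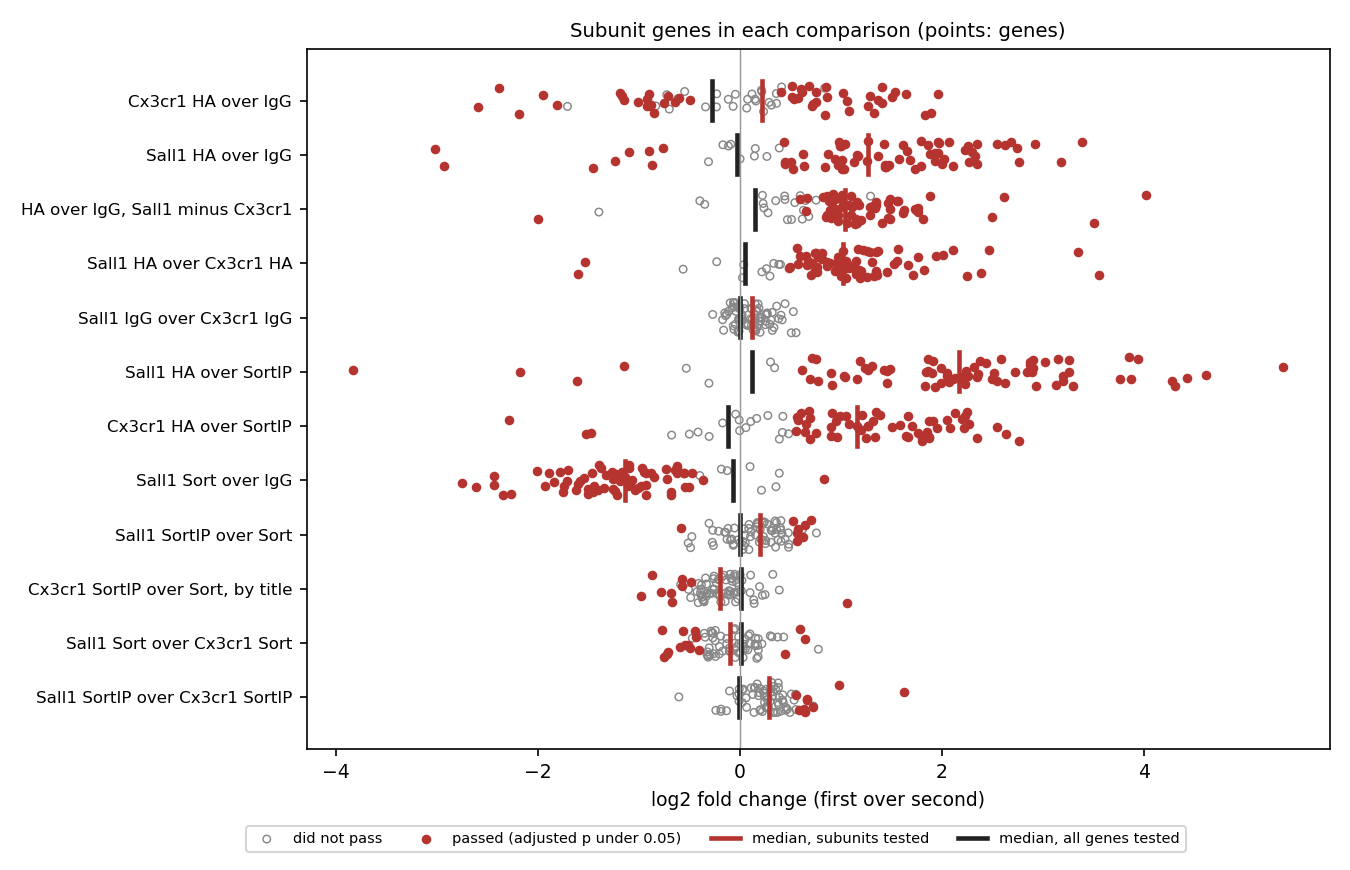
Log2 fold changes of the members tested (points: genes, filled red where adjusted p was under 0.05) in the 12 comparisons, with the median of the members (red bar) and of all genes tested (black bar). The members' medians lie at 1.27, 2.17 and 1.16 for Sall1 HA over IgG and HA over SortIP in the Sall1 and Cx3cr1 lines, at -1.13 for Sall1 Sort over IgG, and between -0.20 and 0.29 in the comparisons among sorted libraries and between the IgG groups.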

How the data were processed

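Raw counts of reads per gene over exons were deposited by the authors in 1 table for all 32 libraries and are not normalized. Per the submitters' processing notes the tools were bcl2fastq, HISAT 0.1.5 and HOMER with the mm9 build; strand setting and handling of reads with several matches are not given in the sources used here. Each group had 4 libraries of 249881 to 4047465 gene counts. Each comparison was fitted on its own groups with edgeR 4.0.16 (limma 3.58.1, R 4.3.3): TMM scaling, edgeR's low-count filter and the robust quasi-likelihood test, with Benjamini-Hochberg adjustment over all genes tested and calls at adjusted p under 0.05. SE is the log2 change divided by the square root of F. The scripts were tested on simulated data. Per the series' design the 4 libraries of a number share 1 mouse; deviations of same-mouse pairs correlated at a median of 0.0813 (48 pairs) and those of different mice at -0.0259 (144 pairs).

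Alternatives were median-ratio size factors, library totals alone, DESeq2 1.42.0, no low-count filter, all 8 groups in one fit, the mouse as a block, a correction for exon length, grouping by description, sums per mouse and leaving out each library. Named members are the isoform sets, the most abundant member of each complex and, per comparison, the 3 called members with the smallest adjusted p in each direction; Uqcrb in the HA to IgG comparisons was added after its values were seen. Members and lists were chosen with earlier results of these data known. One gene of the marker lists is not reported here.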

Additional observations from a re-analysis of the deposited data

Results flagged for a closer look

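In 12 of 183 groups of 4 libraries, 1 library lay farther from the others than Dixon's 95% critical value allows; chance gives about 1 in 20. Among shares of gene counts these were complex III in titled Cx3cr1 Sort library 2 (0.106%), complex IV in Cx3cr1 IgG library 2 (0.369%) and Sall1 IgG library 7 (0.607%), and complex V in Cx3cr1 HA library 3 (0.579%) and Sall1 HA library 21 (1.08%). Among single genes they were Atp5g3 in Sall1 HA library 21 (1292 CPM), Cox7b, Cox8a and Sdhc in titled Cx3cr1 Sort libraries 2 (98.4 CPM), 4 (207 CPM) and 3 (196 CPM), Ndufa4 in Sall1 IgG library 9 (65.2 CPM) and Sall1 Sort library 9 (10.8 CPM), and Sdhd in Sall1 Sort library 9 (147 CPM).

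Enrichment of HA over IgG differed between the lines in 59 members by the interaction test. The log2 difference, Sall1 minus Cx3cr1, was 1.62 for Ndufb9, 1.47 for Ndufa11, 0.59 for Ndufa13, 1.31 for Uqcr10, 2.61 for Atp5k, 1.18 for Atp5b, 0.97 for Atp5g1 and 1.48 for Atp5g3. In complex II it was 0.66 for Sdha, 0.86 for Sdhb and 1.32 for Sdhc. In complex IV it was 0.91 for Cox4i1, 0.82 for Cox6a1, -1.997 for Cox6a2, 0.89 for Cox6b1, 0.86 for Cox7a2, 1.16 for Cox7b and 1.81 for Ndufa4. The values of Cox6b2 (2.50), Cox7a1 (3.51) and Cox8b (4.02) rest on 6, 2 and 2 counts in Cx3cr1 HA and depend on the prior count of the fit. Some of these calls depend on the fit. With the length correction and the mouse as a block, edgeR did not call Cox4i1, Cox6a1, Cox6b1, Cox7a2, Cox7b, Ndufa4, Atp5g1, Sdha, Sdhb or Ndufa13 (adjusted p 0.178 to 0.683). DESeq2 did not call Cox7a2 (adjusted p = 0.0906) or Sdha (0.0921). With median-ratio size factors edgeR did not call Cox7a2, Cox7b, Sdha or Ndufa13 (adjusted p 0.0576 to 0.0933). Some calls also rest on single mice. Leaving out a Cx3cr1 or Sall1 mouse ended the call of Cox7a2 (Cx3cr1 1, 3 or 4, Sall1 9, 17 or 21; adjusted p up to 0.171), Cox7b (Cx3cr1 1, 3 or 4, Sall1 9 or 21; up to 0.161), Sdha (the same mice; up to 0.139), Ndufa13 (Cx3cr1 1 or 2, Sall1 7, 9 or 17; up to 0.110), Ndufa4 (Cx3cr1 2 or 4, Sall1 7, 17 or 21; up to 0.0819) and Cox4i1 (Sall1 9; 0.0538).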

How the results depend on the processing

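Each named gene result was paired with each alternative other than leaving out a library. In 819 of these pairs the call was kept, in 82 it was lost and in 13 gained. A further 21 changed sign where the main or the alternative fit made a call, and some of these also lost the call. A change of sign with no call in either fit was counted as kept. With 1 library left out, 982 pairs kept the call, 83 lost it and 3 gained it. The median of Cx3cr1 HA over IgG reversed with library totals alone (-0.19), with all 8 groups in one fit (-0.11) and with the length correction and replicate block (-0.63). Under that last fit the Cx3cr1 values were Cox4i1 -0.24, Cox6a1 -0.36, Cox6b1 -0.26, Cox7a2 -0.55, Cox8a -0.35, Atp5g1 -0.11, Atp5g3 -0.58, Atp5l -0.63 and Sdhb -0.041, and in Sall1 HA over IgG the median was -0.079, with Cox6a1 -0.18, Cox6a2 -1.46, Cox7a2 -0.19, Cox7a2l -0.60, Cox7b -0.53, Cox8a -0.43, Ndufa4l2 -0.18 and Atp5l -0.64; it called 29 members in the difference between the lines and 15 in Cx3cr1 SortIP over Sort. By description, Cx3cr1 SortIP over Sort had a median of 0.20, Atp5s -1.06, Uqcrc1 0.87, Ndufs4 0.98 and Atp5a1 0.58. The median between Sort libraries was 0.013 with library totals, 0.086 by description and 0.071 in sums per mouse, with 0 and 1 members called in the last 2. Sall1 SortIP over Sort gave 4 calls with library totals and 3 with all 8 groups, and Cx3cr1 SortIP over Sort 4 with all 8 groups. Between SortIP libraries there were 3 with library totals, 3 with all 8 groups, 5 with the length correction and 1 by description or in sums. With TMM library sizes the shares were 2.41% in Cx3cr1 HA, 6.10% in Sall1 HA and 1.02% in Sall1 Sort. The cause of these shifts was not tested.

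With the mouse as a replicate block, calls numbered 55 in Cx3cr1 HA over IgG, 72 in Sall1, 61 in the difference, 11 and 12 in SortIP over Sort (Sall1, Cx3cr1), 77 and 59 in HA over SortIP and 68 in Sall1 Sort over IgG. Shares of all genes called are not given beside these counts, those of the paragraph above or those with 1 library left out. Whether the counts move with all genes was not tested. Among named members the block gained Cox7b in Cx3cr1 HA over IgG and lost Cox7b (adjusted p = 0.0887) and Ndufa4 (0.0647) in the difference. Leaving out 1 library gave 42 to 57 calls in Cx3cr1 HA over IgG, 65 to 71 in Sall1, 53 to 60 in the difference, 62 to 69 between HA groups, 0 between IgG groups, 3 to 7 and 5 to 12 in SortIP over Sort (Sall1, Cx3cr1), 74 to 77 and 57 to 64 in HA over SortIP, 11 to 14 between Sort, 2 to 12 between SortIP and 67 to 70 in Sall1 Sort over IgG.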
